A study of Mus musculus with 6 samples.

Results

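The 4 mouse Hox clusters were followed in leukaemic cells given UNC0638 for 5 days and in cells given the solvent DMSO for 5 days. Members were the genes named Hox with a cluster letter from a to d and a number, read from probe sets whose annotation gives a single gene symbol. This took 37 of the 19937 genes tested on the array, namely 10 of HoxA, 9 of HoxB, 9 of HoxC and 9 of HoxD. Each of the 37 had a single such probe set. Hoxb8 was not a member, since it shares its probe set with Hoxb7 in the annotation.

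The cells were mouse haematopoietic stem and progenitor cells (HSPCs) transformed by HoxA9 and Meis1, a model of acute myeloid leukaemia (AML) named A9M in the labels. All 6 samples carried both transforming genes and grew in DMEM with 10% serum and the cytokines IL3, IL6 and SCF. There were 3 samples given UNC0638, a chemical probe that blocks G9a and GLP (encoded by Ehmt2 and Ehmt1), and 3 given DMSO. The labels give neither the concentration of UNC0638, nor how many clones the line holds, nor whether samples of a group came from separate cultures, so the p-values rest on a spread among samples that may be only technical.

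Hox genes encode homeodomain transcription factors. They lie in 4 clusters, and their order along each cluster follows the order in which they are used along the body axis, from low numbers at the head to high numbers at the tail. In blood, HoxA genes and the lower numbered HoxB genes are used in stem and progenitor cells and are turned down as cells mature, while HoxC and HoxD genes are used mainly outside blood. Proteins of the trithorax group such as MLL keep Hox genes active, and Polycomb proteins keep them silent. G9a and GLP are histone methyltransferases that place dimethylation on lysine 9 of histone H3, a mark of silent genes.

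Total RNA was hybridised to an Affymetrix whole-transcript mouse gene array, and the deposited value of a probe set is an intensity on a linear scale. Probe sets differ in brightness for the same amount of RNA, so intensities were compared between arrays and not ranked between genes. Median intensities of all probe sets were 52.7 to 54.9 on the UNC0638 arrays and 50.4 to 52.5 on the DMSO arrays. The table holds no detection call. As a level for probe sets without transcript, the 95th percentile of 1027 olfactory receptor genes, a family silent in blood cells, was taken on each array, which was 46.0 to 50.7 with UNC0638 and 44.6 to 46.2 with DMSO.

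After UNC0638, the intensities of Hox probe sets differed little from DMSO in all 4 clusters. Of 37 members, 0 passed limma's test at an adjusted p under 0.05, which 0.672% of all genes passed (0.371% higher and 0.301% lower), so a count of 0 is near that background and is no result about the members. At an unadjusted limma p under 0.05 there were also 0 of 37, against 12.7% of all genes. In 0 of 37 did the UNC0638 arrays all lie beyond the DMSO arrays, against 17% of all genes (9.59% with UNC0638 above and 7.4% with UNC0638 below). The share was 11.6% among genes not above the olfactory receptor level on all arrays, where 31 of the members lie. The differences, taken on log2(value + 16), ran from -0.13 for Hoxc13 to 0.18 for Hoxa10. In 26 of 37 members (70.3%) the difference was smaller than the SD between replicates. That share was 61.3% among all genes and 67.0% among the olfactory receptor genes. The lowest adjusted p over the members was 0.597 (Hoxd10, limma). Bulk RNA was measured, so fewer cells of a type and less RNA per cell cannot be told apart.

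**Figure D1:**
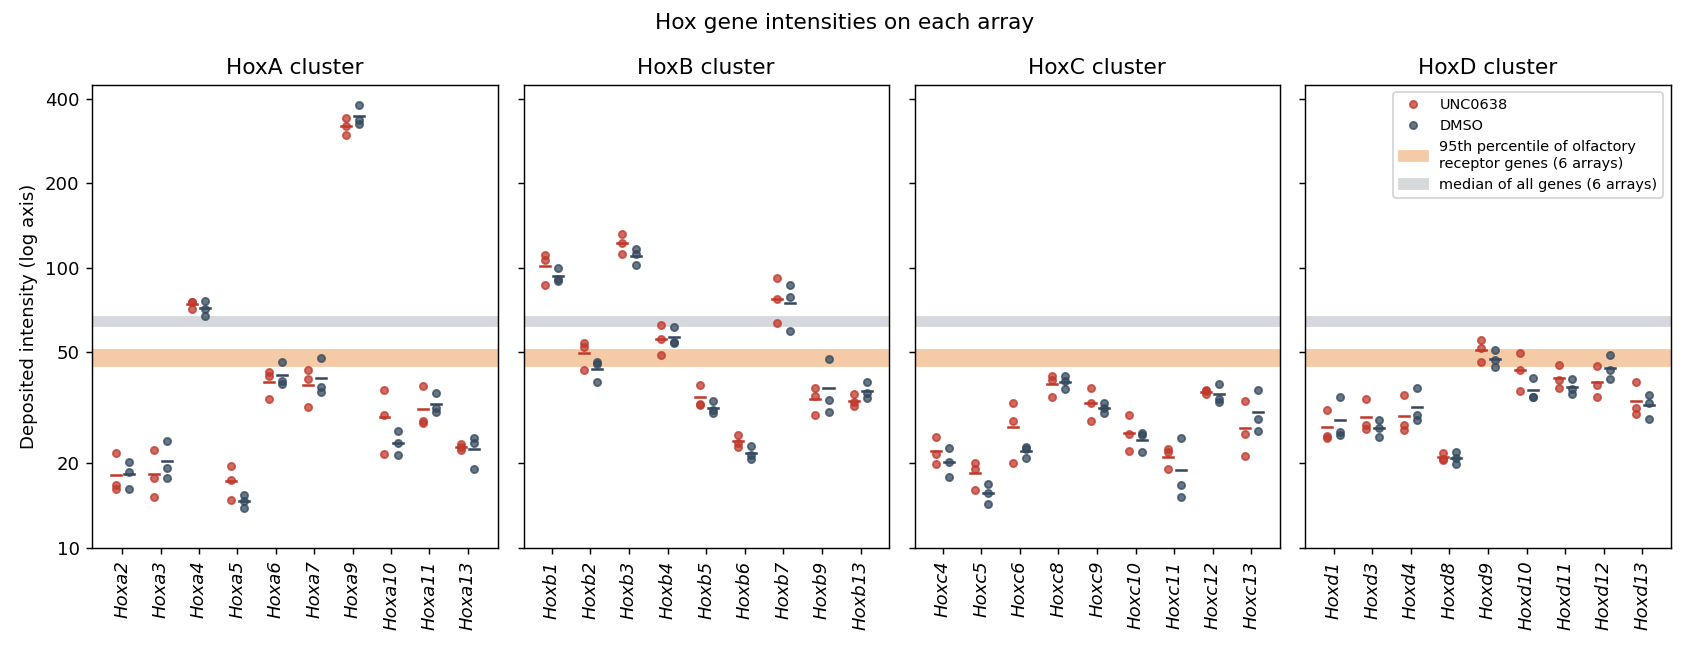
Deposited intensity (log axis) of each Hox gene on each of the 3 UNC0638 arrays and 3 DMSO arrays, with short lines at the group means, by cluster and in order of gene number. The orange band spans the 95th percentiles of olfactory receptor genes over the arrays (44.6 to 50.7) and the grey band the medians of all genes tested (61.8 to 66.7). Hoxa9 lies far above both bands, and all 9 HoxC genes lie below the orange band.

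Most Hox genes had no signal above the olfactory receptor level. On all 6 arrays 6 members lay above it, Hoxa4 and Hoxa9 in HoxA and Hoxb1, Hoxb3, Hoxb4 and Hoxb7 in HoxB. A further 7 lay above it on some arrays, 2 in HoxA, 2 in HoxB and 3 in HoxD, and 24 on none, among them all 9 of HoxC. The members nearest to the level were Hoxb4 on its upper side, at 1.06 to 1.34 times the level of the same array, and Hoxd9, at 0.965 to 1.10 times, which was above it on 5 arrays. The level was set from the 1027 olfactory receptor genes themselves, so some of them lie above it on each array by definition. Of these genes, 28 lay above it on all 6 arrays, and the highest mean among them was 218. Only Hoxa9 (mean 334) exceeded that, as the other members reached at most 116. A place above the level therefore does not by itself show a transcript. Of the genes not above the level on all arrays, 5.24% were at an unadjusted limma p under 0.05, against 19.1% of those above it. The 31 members not above it are of the first kind, so a response in them could more easily be missed.

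Hoxa9, the transforming gene and the marker of these cells, lay at 6.18 to 8.54 times the level of the same array. Its probe set 10544788 read 319.2, 343 and 298 with UNC0638, against 380.4, 338 and 327 with DMSO. The ranges overlap, with 1 DMSO array above all others. The means were 319.9 ± 22.4 with UNC0638 and 348 ± 28.4 with DMSO (SD, n = 3 each), a log2 difference of -0.12 (SE 0.091, limma adjusted p = 0.686). The 95% interval of the fold was 0.798 to 1.07 (limma), and 0.767 to 1.10 with a pseudocount of 1 in place of 16. Both rest on the spread among these samples only. The labels do not say whether the introduced HoxA9 is read by this probe set, so signal from the cells' own gene and from the introduced copy cannot be told apart.

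Among the other HoxA genes, Hoxa4, a gene of neck vertebrae patterning that is also active in blood progenitors, was the only other member above the level. It read 71.1, 75.5 and 75.5 with UNC0638, against 71.3, 67.2 and 76.1 with DMSO. The groups overlap, and the log2 difference of 0.041 (SE 0.078, limma adjusted p = 0.90) is smaller than the replicate SD of 0.059. Hoxa6, which lies beside Hoxa7 in the cluster, read 42.3, 41.0 and 34.0 with UNC0638, against 38.5, 46.0 and 39.5 with DMSO. Its difference was -0.058 and turned to 0.010 without UNC0638 replicate 3.

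Hoxa10, which is used with Hoxa9 in myeloid progenitors, had the highest difference of all members. It read 21.6, 36.6 and 29.7 with UNC0638, against 26.2, 21.4 and 23.6 with DMSO. Of the UNC0638 arrays 1 was within the DMSO range and 2 were above it, and no array reached the olfactory receptor level. The log2 difference was 0.18 (SE 0.12, limma adjusted p = 0.643), and without UNC0638 replicate 1, the lowest of its group, it was 0.31 (limma adjusted p = 0.298). The 6 HoxA genes left had log2 differences between -0.082 for Hoxa3 and 0.12 for Hoxa5. Hoxa5, a gene of lung and airway formation, averaged 17.3 ± 2.35 with UNC0638 and 14.6 ± 0.772 with DMSO (SD, n = 3 each). Hoxa7, which is active in myeloid leukaemia together with Hoxa9, averaged 38.3 ± 5.90 with UNC0638 and 40.3 ± 6.37 with DMSO (SD, n = 3 each), and differed by -0.054. Hoxa2, Hoxa11 and Hoxa13 lay between -0.046 and 0.018.

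HoxB held 4 of the 6 members above the olfactory receptor level on all arrays. Hoxb3, a gene of the hindbrain that is also used in blood stem cells, read 123, 132 and 112 with UNC0638, against 102, 116 and 112 with DMSO. Hoxb1, which sets the identity of a hindbrain segment, read 111, 107 and 86.7 with UNC0638, against 89.6, 91.0 and 99.4 with DMSO. In both genes the highest array was an UNC0638 array and the groups overlap. The log2 difference of Hoxb3 was 0.13 (SE 0.088, limma adjusted p = 0.634) and that of Hoxb1 was 0.10 (SE 0.10, limma adjusted p = 0.770).

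Hoxb4, known for expanding blood stem cells when it is added to them, read 48.8, 62.3 and 55.8 with UNC0638, against 54.1, 61.4 and 53.9 with DMSO. It was named after its values were seen, as a member above the level. Its groups overlap fully, with a difference of -0.020 that turned to 0.050 without UNC0638 replicate 1 and to 0.028 without DMSO replicate 2. Hoxb7, a gene of the trunk, read 91.9, 77.4 and 63.3 with UNC0638, against 59.3, 78.6 and 86.7 with DMSO. It varied most between replicates among the 6 members above the level on all arrays (SD 0.23 on the log2 scale). Its difference of 0.042 turned to -0.067 without UNC0638 replicate 1 and to -0.087 without DMSO replicate 1.

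Below or near the level, Hoxb2, used in the hindbrain, had the highest difference of HoxB, and Hoxb13, used in the tail and the prostate, the lowest. Hoxb2 read 43.3, 53.7 and 52.0 with UNC0638, against 45.4, 46.0 and 39.1 with DMSO (log2 difference 0.14, SE 0.094, limma adjusted p = 0.623). Hoxb13 read 32.1, 33.2 and 35.3 with UNC0638, against 34.2, 39.2 and 35.6 with DMSO (log2 difference -0.079, SE 0.078, limma adjusted p = 0.767). The groups overlap in both. Of the HoxB genes left, Hoxb5 and Hoxb6 were at 0.081 and 0.082, and Hoxb9, a gene of the lower trunk, was at -0.077. Hoxb9 averaged 34.0 ± 3.84 with UNC0638 and 37.1 ± 8.88 with DMSO (SD, n = 3 each), so its DMSO arrays spread more widely than the difference. The probe set shared by Hoxb8 and Hoxb7, which is not a member, read 21.6, 25.5 and 22.01 with UNC0638, against 22.3, 20.2 and 27.6 with DMSO.

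No HoxC gene lay above the olfactory receptor level on any array. Hoxc6, a gene of the chest region, had the highest difference and read 28.4, 20.02 and 32.9 with UNC0638, against 22.6, 22.9 and 20.9 with DMSO. The UNC0638 values spread on both sides of the DMSO values (log2 difference 0.17, SE 0.11, limma adjusted p = 0.643). Hoxc13, known for hair and nail formation, had the lowest and read 25.6, 33.6 and 21.2 with UNC0638, against 26.2, 28.8 and 36.6 with DMSO (log2 difference -0.13, SE 0.13, limma adjusted p = 0.772). Hoxc8 (39.8, 41.0 and 34.4 with UNC0638, against 36.8, 39.2 and 41.2 with DMSO), a gene of the trunk skeleton, was at -0.018. Hoxc9 (32.9, 37.2 and 28.4 with UNC0638, against 30.3, 32.9 and 31.6 with DMSO), which sets the identity of trunk motor neurons, was at 0.034. Hoxc12 (36.6, 36.3 and 35.5 with UNC0638, against 38.6, 33.2 and 34.0 with DMSO) was at 0.025. These last 3 changed sign when single arrays were left out, and Hoxc12 also under quantile normalization (-0.011) and median centring (-0.0045). The 4 HoxC genes left, Hoxc4, Hoxc5, Hoxc10 and Hoxc11, were all above 0, between 0.047 for Hoxc10 and 0.12 for Hoxc5, with limma adjusted p from 0.633 to 0.907.

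In HoxD, Hoxd9, a gene of the hind limb and lower spine, came closest to lying above the olfactory receptor level on all arrays. It read 46.1, 55.2 and 51.7 with UNC0638, against 46.9, 44.2 and 50.8 with DMSO, and all 3 UNC0638 arrays but 2 of the 3 DMSO arrays were above the level of their own array. The groups overlap (log2 difference 0.082, SE 0.086, limma adjusted p = 0.785). Hoxd10, used in motor neurons of the hind limb, read 43.1, 36.3 and 49.7 with UNC0638, against 34.6, 34.7 and 40.5 with DMSO. Its unadjusted limma p of 0.149 was the lowest of all members (log2 difference 0.16, SE 0.10). Hoxd12, used in the digits, read 34.7, 44.4 and 38.2 with UNC0638, against 40.1, 43.1 and 48.9 with DMSO (log2 difference -0.12, SE 0.097, limma adjusted p = 0.683). The groups overlap in both. The 6 HoxD genes left lay between -0.069 for Hoxd4 and 0.083 for Hoxd3. Hoxd11, which shapes the forearm, averaged 40.5 ± 3.99 with UNC0638 and 37.5 ± 2.40 with DMSO (SD, n = 3 each), and differed by 0.079. Hoxd13, which shapes the digits, averaged 33.5 ± 4.80 with UNC0638 and 32.3 ± 3.28 with DMSO (SD, n = 3 each), and differed by 0.034. Hoxd1 and Hoxd8 were at -0.052 and 0.0052.

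**Figure D2:**
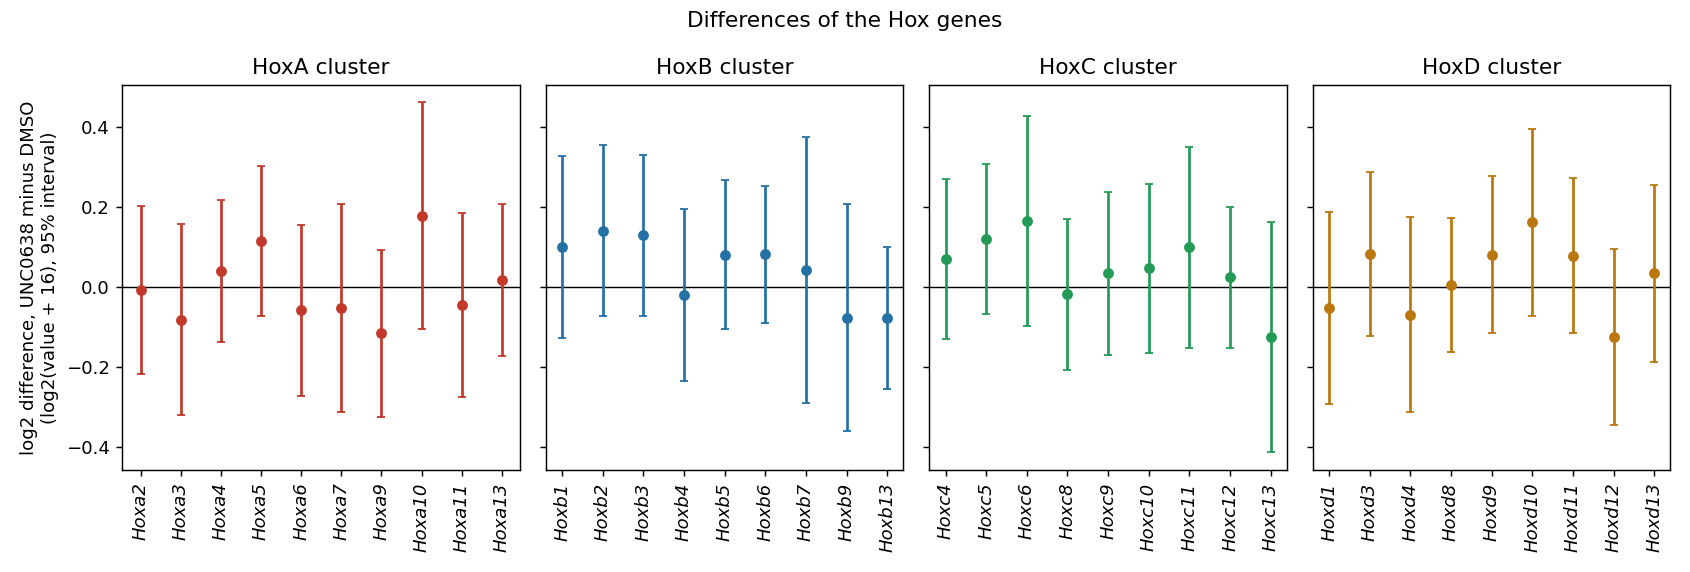
The log2 difference of each Hox gene, UNC0638 minus DMSO on log2(value + 16), with its 95% interval from limma, by cluster and in order of gene number. All 37 intervals include 0, and the farthest bounds are -0.41 for Hoxc13 and 0.46 for Hoxa10.

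For the 6 members above the olfactory receptor level on all arrays, the 95% intervals on the log2 scale lay between -0.32 and 0.37, which corresponds to 0.798-fold to 1.30-fold, and with a pseudocount of 1 in place of 16 between 0.767-fold (Hoxa9) and 1.35-fold (Hoxb7). These intervals rest on the spread among these samples only, and for Hoxb4, close to the level, the fold holds much background. For the members at the olfactory receptor level an interval describes the probe set and not the transcript.

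Set side by side, the clusters had small median differences. In HoxC and in HoxD 0 of 9 members lay above the olfactory receptor level on all arrays. Their medians describe probe sets more than transcripts. The median log2 difference was -0.026 in HoxA, 0.081 in HoxB, 0.047 in HoxC and 0.034 in HoxD, and 0.012 over all genes tested. Differences above 0 were found in 4 of 10 HoxA, 6 of 9 HoxB, 7 of 9 HoxC and 6 of 9 HoxD genes, which makes 62.2% of the 37 members, against 53.9% of all genes. The olfactory receptor genes had a median of 0.041 and 71.3% of differences above 0, so a shift of this size was also seen in probe sets taken to have no transcript. The median of HoxA had the other sign without UNC0638 replicate 1 (0.0052), without UNC0638 replicate 3 (0.020) and without DMSO replicate 2 (0.018), while those of HoxB, HoxC and HoxD stayed above 0 in all alternatives that gave a value. Without UNC0638 replicate 2 the medians were 0.037 in HoxB, 0.023 in HoxC and 0.010 in HoxD, without UNC0638 replicate 1 they were 0.050 in HoxB and 0.015 in HoxD, without DMSO replicate 2 that of HoxC was 0.024, and without DMSO replicate 3 that of HoxD was 0.051. No test of a difference between clusters was made, as genes of a cluster are not replicates.

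The mean deviation of a cluster from its own genes' means gives the same comparison array by array. For HoxB it was 0.024, 0.087 and -0.044 with UNC0638, against -0.10, 0.057 and -0.023 with DMSO. For HoxA it was -0.039, 0.074 and -0.036 with UNC0638, against -0.020, 0.020 and 0.0012 with DMSO. In both clusters the groups overlap, and UNC0638 replicate 2 was the highest array. For HoxC it was 0.0017, 0.049 and 0.019 with UNC0638, against -0.018, -0.046 and -0.0050 with DMSO, so here the groups do not overlap, by a margin smaller than 0.01, in a cluster with no member above the olfactory receptor level. For HoxD it was 0.019, 0.0048 and 0.0093 with UNC0638, against -0.035, -0.038 and 0.040 with DMSO, with the highest array in the DMSO group.

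**Figure D3:**
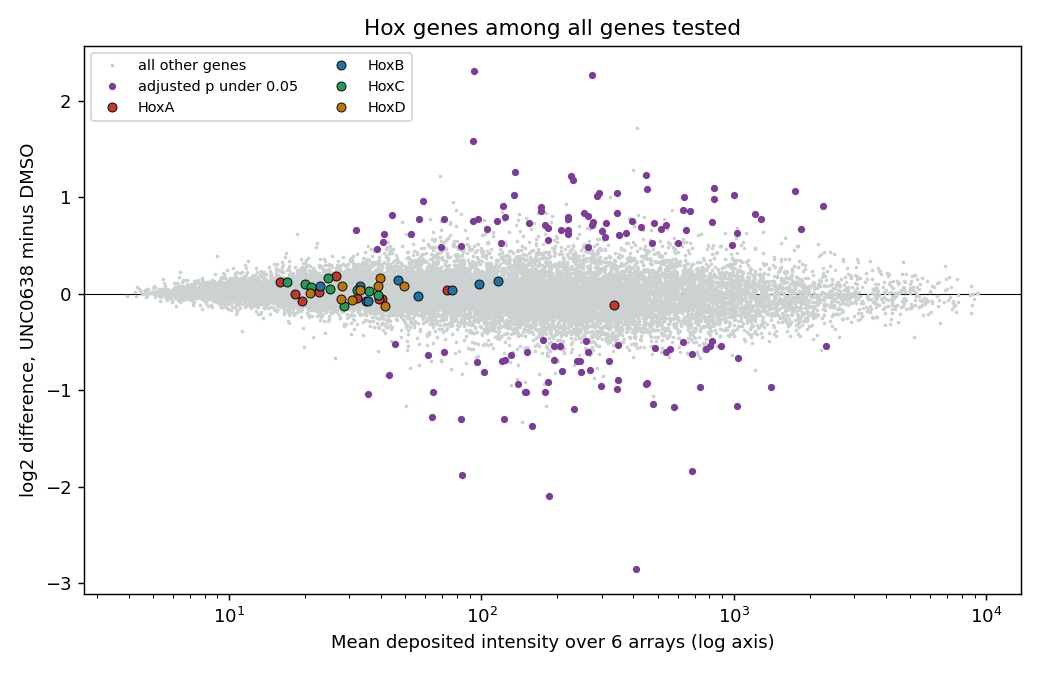
Mean deposited intensity over 6 arrays (log axis) against the log2 difference, UNC0638 minus DMSO, for all 19937 genes, with the 134 genes at a limma adjusted p under 0.05 in purple and the Hox genes coloured by cluster. All Hox genes lie within 0.18 of no difference, and only 5 of them, Hoxa9, Hoxb3, Hoxb1, Hoxb7 and Hoxa4, have a mean above 64.7, the median of the genes tested.

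Place in the cluster did not order the differences either. The median was 0.041 for the 11 genes numbered 1 to 4, which are used nearest the head, 0.062 for the 10 numbered 5 to 8, and 0.029 for the 16 numbered 9 to 13. At an unadjusted limma p under 0.05 there were 0 in each. Genes of the same number in different clusters, which are close relatives by duplication, lay on both sides of 0, except in group 5 (0.081 to 0.12) and group 10 (0.047 to 0.18), where all were above it. In group 9 differences ran from -0.12 for Hoxa9 to 0.082 for Hoxd9. Some annotated genes overlap, Hoxa3 with Hoxa4, Hoxa5 and Hoxa6, Hoxb3 with Hoxb4, Hoxd3 with Hoxd4 and Hoxd10 with Hoxd11, and how far their signals are shared was not tested.

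The clusters also encode microRNAs, small RNAs that repress transcripts through a seed at their 5′ end, and those of the miR-196 family are known to repress Hox transcripts. The array named 6 of these genes, whose probe sets read the precursor transcripts rather than the mature RNA. Mature sequences from RefSeq (GRCm38.p6) are given 5′ to 3′ with the seed, bases 2 to 8, in capitals, to show which cluster members share a seed. The copies of miR-196 share one seed, and miR-10a and miR-10b another.
miR-196b-5p, HoxA, chr6:52230129-52230150, minus strand: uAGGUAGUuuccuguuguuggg
miR-196a-5p, HoxB copy, chr11:96265187-96265208, plus strand: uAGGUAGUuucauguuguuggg
miR-10a-5p, HoxB, chr11:96317186-96317208, plus strand: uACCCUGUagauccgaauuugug
miR-10b-5p, HoxD, chr2:74726074-74726096, plus strand: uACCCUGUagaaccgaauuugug
miR-615-3p, HoxC, chr15:103014969-103014990, plus strand: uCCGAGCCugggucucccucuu

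The precursors did not pass the test either. Mir196b, which lies between Hoxa9 and Hoxa10, read 30.6, 27.8 and 49.98 with UNC0638, against 26.7, 29.5 and 31.5 with DMSO. A single UNC0638 array was high, and the groups overlap (log2 difference 0.18, SE 0.15, limma adjusted p = 0.697). Mir10a and Mir10b had means of 7.20 ± 1.23 and 7.90 ± 0.583 with UNC0638, against 6.72 ± 1.05 and 8.01 ± 0.991 with DMSO (SD, n = 3 each). Both copies of Mir196a were below the 95th percentile, with means of 19.3 ± 2.56 in HoxB and 19.7 ± 1.59 in HoxC with UNC0638, against 17.1 ± 0.412 and 24.5 ± 4.52 with DMSO. In the HoxB copy all 3 UNC0638 arrays were above the DMSO arrays (log2 difference 0.089, limma adjusted p = 0.746). Mir615, which lies within the annotated Hoxc5 gene, was the exception, at 119, 126.4 and 100.2 with UNC0638, against 116, 126 and 155 with DMSO, while Hoxc5 itself read 16.1, 19.1 and 20.2 with UNC0638, against 15.7, 16.8 and 14.3 with DMSO. The mature arms of Mir615 have 70.5% G and C, against 40% to 52.3% for the other 5 genes, and the part of base composition in that signal was not tested. Of the 9 measured noncoding transcripts of the clusters, which also include Hottip, Hoxaas2 and Hoxd3os1, 0 passed limma's test, 0 were at an unadjusted p under 0.05, and the median was 0.030.

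Genes that act with Hox proteins or on Hox chromatin were read from 9 lists of 101 genes in all, noncoding transcripts and neighbours included. Of these, 0 passed limma's adjusted threshold, which at 0.672% of all genes is near the background and no result about the lists. The counts at an unadjusted p under 0.05 given below stand against 12.7% of all genes and 19.1% of genes above the olfactory receptor level. Of 8 measured cofactors of the Meis, Pbx and Pknox families, which bind DNA together with Hox proteins, 1 was at an unadjusted p under 0.05. This was Pbx3, a partner of Hoxa9 in leukaemia, at 247, 264 and 245 with UNC0638, against 224, 198 and 206 with DMSO. All 3 UNC0638 arrays were above the DMSO arrays (log2 difference 0.25, SE 0.081, limma adjusted p = 0.237). Meis1, the other transforming gene, read 3068, 3060.3 and 2982 with UNC0638, against 3042, 2974 and 3071 with DMSO, with full overlap. As with Hoxa9, signal from the cells' own Meis1 and from the introduced copy cannot be told apart.

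Among 19 genes of the trithorax group and the MLL complex, which keep Hox genes active, 2 were at an unadjusted limma p under 0.05, in opposite directions. Aff1, part of an elongation complex, had means of 684 ± 59.5 with UNC0638 and 538 ± 68.8 with DMSO (log2 difference 0.34, limma adjusted p = 0.246). Hcfc1, a scaffold of several MLL-type complexes, had means of 605 ± 31.5 with UNC0638 and 706 ± 68.5 with DMSO (log2 difference -0.21, limma adjusted p = 0.388). Among 21 Polycomb genes, which keep Hox genes silent, 3 were at that level, a share near that of all genes, namely Jarid2 (0.31), a subunit that guides the complex to DNA, Ezh1 (0.25), a histone methyltransferase, and Asxl1 (0.20), part of a complex that removes ubiquitin from histone H2A. Their limma adjusted p ran from 0.247 to 0.390. The largest difference of that list was that of Cbx8 (0.33), which read 114.7, 58.3 and 57.7 with UNC0638, against 43.3, 58.4 and 65.8 with DMSO, and so rests on a single array. The medians of these lists were 0.0030 and 0.0041. Hcfc1, Jarid2, Ezh1 and Asxl1 were named after their values were seen.

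Further inputs to the clusters showed the same picture. A list of 5 genes held the demethylases of histone H3 lysine 27, Kdm6a and Kdm6b, with Ctcf and the cohesin genes Rad21 and Stag2. Its median was 0.032, with 0 at an unadjusted p under 0.05 in limma and the largest difference in Stag2 (0.16). Of 6 Cdx and other ParaHox genes, relatives and activators of Hox genes, 0 were at that level, and Cdx1 was the 1 gene above the olfactory receptor level on all arrays (63.4 ± 9.52 with UNC0638 and 71.1 ± 17.2 with DMSO, log2 difference -0.12, and 0.021 without DMSO replicate 2). Of 16 genes of the retinoic acid pathway, which induces Hox genes at the low-numbered end, 2 were at an unadjusted limma p under 0.05, both higher. Dhrs3, a reductase that limits retinoic acid, read 322, 336 and 401.2 with UNC0638, against 233, 279 and 298 with DMSO (log2 difference 0.37, limma adjusted p = 0.226). Cyp26b1, which degrades retinoic acid, was at 0.22 (limma adjusted p = 0.371) and was named after its values were seen.

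**Figure D4:**
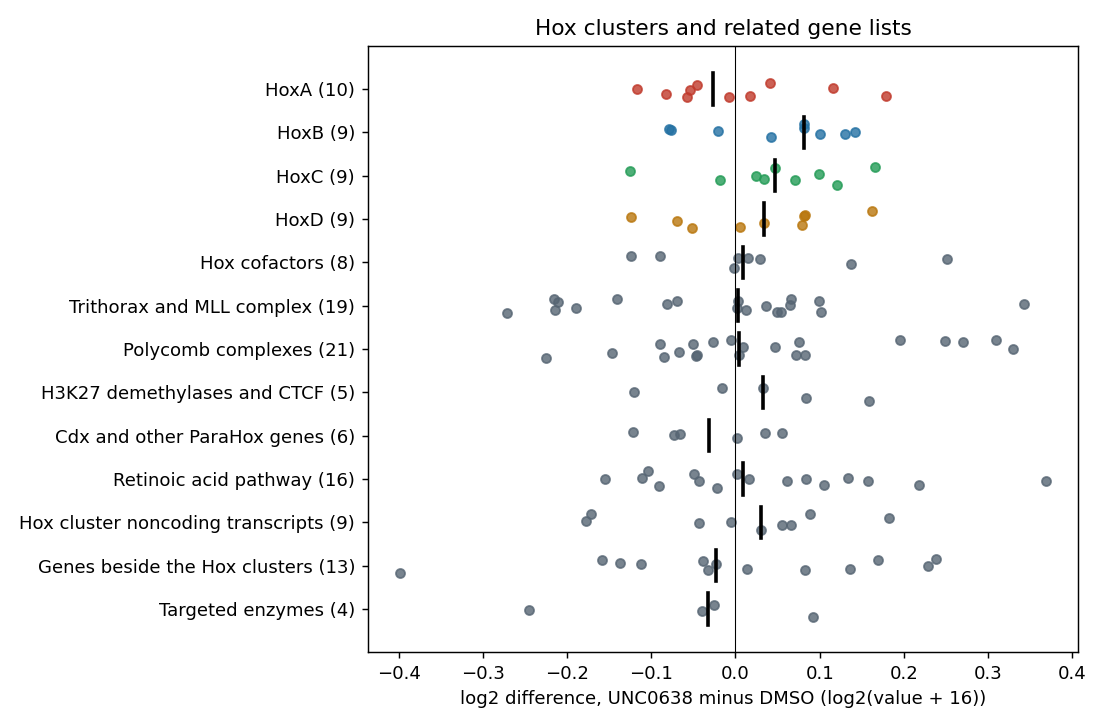
The log2 difference, UNC0638 minus DMSO, of each gene of the 4 Hox clusters and of 9 related lists, with the number of measured genes in brackets and a black bar at the median of each list. Hox genes lie between -0.13 and 0.18, and the widest spread is that of the genes beside the clusters, from -0.40 to 0.24.

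Genes that flank the clusters had a median absolute log2 difference of 0.14, against 0.079 for the Hox genes and 0.089 for all genes. This median was 0.12 for genes above the olfactory receptor level on all arrays, where 8 of 13 neighbours but 6 of 37 Hox genes lie. Among genes not above it on all arrays the median was 0.064, and for the 31 Hox genes there it was 0.079. None of these contrasts was tested. Of 13 measured neighbours, 2 were at an unadjusted limma p under 0.05, near the 12.7% of all genes. Mtx2, a mitochondrial import gene beside HoxD, read 138, 128 and 175 with UNC0638, against 231, 178 and 187 with DMSO (log2 difference -0.40, SE 0.13, limma adjusted p = 0.249). Ttll6, a gene near HoxB that was named after its values were seen, read 31.3, 30.6 and 32.2 with UNC0638, against 26.98, 23.2 and 23.2 with DMSO (log2 difference 0.23, SE 0.077, limma adjusted p = 0.259). In both the groups do not overlap, as in 17% of all genes, while Ttll6 stayed below the olfactory receptor level. A list of 4 genes held the targeted enzymes Ehmt2 and Ehmt1 together with Wiz and Zfp644. Ehmt2 read 98.7, 99.8 and 103 with UNC0638, against 112, 137 and 119 with DMSO (log2 difference -0.25, limma adjusted p = 0.293). It was the 1 gene of that list at an unadjusted limma p under 0.05. Ehmt1 averaged 169 ± 12.2 with UNC0638 and 174 ± 12.2 with DMSO (SD, n = 3 each), and its groups overlap.

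The labelled cell type was checked against its markers. All 16 haematopoietic markers, among them Ptprc, Spi1, Kit, Cd34 and Mpo, were above the olfactory receptor level on all arrays, with summed intensities of 29463 to 31279 with UNC0638 and 28619 to 29911 with DMSO. None passed the adjusted limma threshold. At an unadjusted limma p under 0.05 were 5 of 16, Ptprc, Cd34, Runx1, Csf1r and Itgam, against 19.1% of genes above the level. Groups lay apart, in either direction, in 21.6% of genes above the level. In all 5 markers, chosen by that p, the UNC0638 arrays lay above the DMSO arrays. The largest difference was that of Csf1r (0.52, limma adjusted p = 0.120), their part in the Hox values was not tested, and all but Csf1r were named after their values were seen. Of 12 stromal markers, a class that uses HoxC and HoxD genes, 6 were above the level on all arrays, with summed intensities of 3215 to 3937 with UNC0638 and 3507 to 4217 with DMSO, most of it from Thy1, which blood cells can also express. The others above it were Col1a1 (mean 109 with UNC0638 and 99.7 with DMSO), Col1a2 (83.9 and 81.7), Col3a1 (51.6 and 50.2), Col6a1 (67.1 and 69.0) and Pdgfrb (76.1 and 63.7). Dcn, Lum, Postn, Prrx1 and Pdgfra were below it on all arrays, Twist1 was above it on some, and Pdgfrb had the largest difference (0.21). Above the level on all arrays were also 1 of 6 endothelial markers (Pecam1, shared with blood cells, the largest difference being 0.086 in Kdr), 0 of 7 lymphoid markers (largest difference 0.35 in Cd79b) and 3 of 5 erythroid and megakaryocyte markers (largest difference -0.66 in Pf4). Their summed intensities were 869 to 951, 277 to 323 and 686 to 887 with UNC0638, against 896 to 955, 254 to 266 and 900.3 to 1146 with DMSO, and their part in the Hox values was not tested.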

How the data were processed

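The authors deposited 1 processed intensity per probe set and array, on a linear scale (2.74 to 19527). For the software, background correction and normalization the status is: not given in the sources used here. Such steps can shrink or shift differences of dim probe sets. The annotation names 1 gene for 21640 of 34760 probe sets, more than 1 for 1321, and no gene for 11799. For 954 genes with several probe sets the brightest was kept, which gave 19937 genes, and names follow a gene table of GRCm38.p6. UNC0638 (3 arrays) was compared with DMSO (3 arrays) by limma 3.58.1 in R 4.3.3 on log2(value + 16), with lmFit and eBayes on group alone (prior degrees of freedom 4.47), two-sided, and Benjamini-Hochberg adjustment over all genes. The pseudocount understates changes of dim genes.

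On simulated data 200 of 19937 genes were changed. Noise was drawn as independent normal values with each gene's variance from the limma fit, which real arrays need not follow. The fit found 63.7% of log2 changes of 0.5 and 99.7% of those of 1. Of all genes called, 6.55% were genes left unchanged. The shares found are over all changed genes, and none was given for dim genes alone. In dim probe sets the pseudocount makes a change of transcript smaller on the fitted scale. The shares therefore do not say how often such a change would be found in members not above the olfactory receptor level. Genes named are Hoxa9, the 3 brightest members of each cluster, those with its highest and lowest difference, members past the threshold or at an unadjusted p under 0.05, and in each other list those past the threshold or else the largest change. Meis1, Ehmt1, the microRNA genes and the means of further members are given outside that rule and were chosen after their values were seen. Members and lists were chosen with earlier results of these data known. Alternatives were pseudocounts of 1 and 64, quantile normalization, median centring, leaving out the dimmest 40% of genes, other handling of probe sets, a trended prior, the replicate block, array weights, a threshold of 0.01, other signal levels and each array left out. Figures were drawn with matplotlib 3.10.9.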

Additional observations from a re-analysis of the deposited data

How the results depend on the processing

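The count of 0 Hox genes past the threshold, and of 0 among the 101 genes of the related lists, was the same in all alternatives tried. Without the dimmest 40% of genes 8 of 37 members were tested and HoxC gave no value. At an unadjusted p under 0.05 there were 0 to 2 Hox genes when single arrays were left out, namely Hoxa10 without UNC0638 replicate 1, and Hoxc6 and Hoxd10 without UNC0638 replicate 2. The count over all genes, 134, was 49 with a pseudocount of 64, 18 at a threshold of 0.01 and 10 to 69 without single arrays. With the replicate block it was 73. Same-numbered arrays correlated at -0.066, 0.11 and 0.017 in their deviations from the group means, so the numbers were not taken as pairs, and UNC0638 replicates 1 and 3 did not correlate best with their own number. The HoxC median was 0.071 and 0.022 with pseudocounts of 1 and 64, 0.019 with quantile normalization, 0.017 with median centring and 0.023 to 0.069 without single arrays. The HoxD median was 0.00024 with quantile normalization and 0.082 without the dimmest 40% of genes, where Hoxd9 alone remained. Members above the signal level in at least 1 group numbered 7, against 11 with the 90th percentile and 4 with the median of all genes. Of 595 values for 38 named genes, 12 had the other sign and 0 passed the threshold. Over all 37 members 16 had the other sign in at least 1 alternative, namely Hoxa2, Hoxa7, Hoxa11, Hoxa13, Hoxb9, Hoxc10, Hoxd1, Hoxd4, Hoxd8 and Hoxd13 beside the 6 Hox genes given next. Hoxc12 was at -0.011 with quantile normalization and -0.0045 with median centring. Without single arrays Hoxa6 lay between -0.10 and 0.010, Hoxb4 between -0.087 and 0.050, Hoxb7 between -0.087 and 0.16, Hoxc8 between -0.053 and 0.036, Hoxc9 between -0.030 and 0.10, Hoxc12 between -0.0037 and 0.071 and Cdx1 between -0.27 and 0.021. The causes were not tested.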

Other observations

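Olfactory receptor genes, taken here as probe sets without transcript in blood cells, had differences above 0 more often than below. Of 1027 such genes 732 had a difference above 0 and 295 below, with a median of 0.041 on the log2 scale, and 1 passed the adjusted limma threshold. In 98 of the 1027 the UNC0638 arrays all lay above the DMSO arrays, a share near the 9.59% of all genes, and in 16 they all lay below, against 7.4% of all genes.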
